A study of Drosophila melanogaster with 8 samples.

Results

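The difference between 2 differences was measured here: the change seen with dimm at embryonic stage 16, minus the change seen with it at stage 14. All 8 of the 8 arrays of the study entered it, and 8258 of 18769 probe sets were kept because at least 2 arrays gave them a log2 signal above 4. Whole dechorionated Drosophila embryos were profiled on Affymetrix Drosophila Genome 2.0 arrays, with 2 arrays for each genotype at each stage. The dimm embryos had the genotype w;UAS-dimm2A3/+;elav-GAL4/+, which places a myc-tagged dimm transgene (line 2A3) under the control of GAL4 made by the neuronal driver elav-GAL4. The control embryos, w;;elav-GAL4, came from the driver's parental line, so they also differed from the dimm embryos in GAL4 dose and in the chromosomes contributed by the transgene parent. Eggs of both genotypes were laid at 18 °C by flies reared at 25 °C. Stage 16 embryos were aged 28 to 32 h and stage 14 embryos 22 to 26 h. The labels do not say whether the 2 arrays of a group came from separate egg collections, and the spread behind the p-values, which is that of these arrays, may be technical.

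DIMMED, the protein of dimm, is a basic helix-loop-helix transcription factor of peptide-secreting neuroendocrine cells. It promotes the regulated secretory pathway, in which prohormones are cleaved and amidated and the mature peptides are stored in dense core vesicles. At stage 14 the embryonic nervous system still holds dividing neuroblasts, while at stage 16 neurons are differentiating, synapses form and the epidermis starts to make cuticle. In a whole embryo, fewer cells of a type and less RNA per cell cannot be told apart.

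Signals are log2 values, and signals under 4 were raised to 4 so that background readings carried no differences. The effect of dimm at a stage is the mean of its dimm arrays minus the mean of its control arrays, and the stage difference is the effect at stage 16 minus the effect at stage 14. A positive stage difference therefore means a more positive effect at stage 16. Effects were called apart where all 4 differences between single dimm and control arrays at one stage lay beyond all 4 at the other. Errors beside log2 values are standard errors of the limma fit, and adjusted p-values are limma's with Benjamini-Hochberg adjustment over the 8258 probe sets, with a threshold of 0.05.

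Each array had between 7574 and 7651 probe sets above 4. The first stage 16 array of each genotype stood apart from the other 6 arrays in its actin control probe sets: the 5' minus 3' signal was -8.00 for dimm replicate 1 and -8.69 for control replicate 1, against -2.93 to -4.48 on the others. The SD of the difference between the 2 arrays of a group was 0.656 for stage 16 dimm, 0.746 for stage 16 control, 0.279 for stage 14 dimm and 0.156 for stage 14 control. Marker genes of neurons, glia, neuroblasts, muscle, epidermis, trachea, haemocytes, fat body and midgut each had at least 1 member above 4 on all 8 arrays. No germline marker had, and 1 of its 3 was above 4 on none.

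The targeted gene was read first. The dimm probe set had signals of 5.51 and 8.26 in stage 16 dimm embryos against 4 and 4 in stage 16 control embryos. At stage 14 it had 7.59 and 7.66 in dimm embryos against 4 and 4 in control embryos. All 4 dimm arrays were thus above all 4 control arrays, none of which was above 4, and 1 stage 16 dimm array was low. As lower bounds, the mean signals with dimm were at least 7.40-fold higher at stage 16 (adjusted p = 0.353, limma) and at least 12.3-fold higher at stage 14 (adjusted p = 0.219). The stage difference was -0.74 ± 1.2 with a 95% interval of -3.77 to 2.30. Without the 2 stage 16 arrays of low 5' signal the stage difference was 0.64, so its sign rested on the low array. The gene elav, whose promoter drives GAL4 and which encodes a neuronal RNA-binding protein, had a stage difference of 0.05 ± 0.11 (interval -0.23 to 0.33).

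The stage difference passed the threshold for 3 of 8258 probe sets, or 0.0363% of those tested. They were CG4577, whose effect was higher at stage 16 (0.0121% of probe sets in that direction), and CngA and GstD5, whose effects were lower at stage 16 (0.0242%). At an unadjusted p under 0.05 there were 304 probe sets, 3.68% of those tested. The effect of dimm itself passed the threshold for 27 probe sets at stage 16, or 0.327%, of which 16 were raised (0.194%) and 11 lowered (0.133%). At stage 14 the effect passed for 35, or 0.424%, of which 29 were raised (0.351%) and 6 lowered (0.0727%). With single arrays left out the stage 16 count was 3 to 42, the stage 14 count 1 to 23 and the count for the stage difference 0 to 7. With a variance per stage the stage 16 count was 1, the stage 14 count 776 and the count for the stage difference 2. The 3 probe sets had one feature in common: each was above 4 at a single stage. Among the 6859 probe sets above 4 on all 8 arrays none passed for the stage difference with limma, although 180 of them had an unadjusted p under 0.05. The replicate spread entering the 3 calls was small partly because readings raised to 4 have no spread, which held for 4 of 8 readings of CG4577 and for 6 of 8 readings each of CngA and GstD5. Without the 2 stage 16 arrays of low 5' signal the count was 365 (137 higher and 228 lower at stage 16), a fit in which stage 16 has a single array per genotype and only stage 14 supplies a spread.

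**Figure D1:**
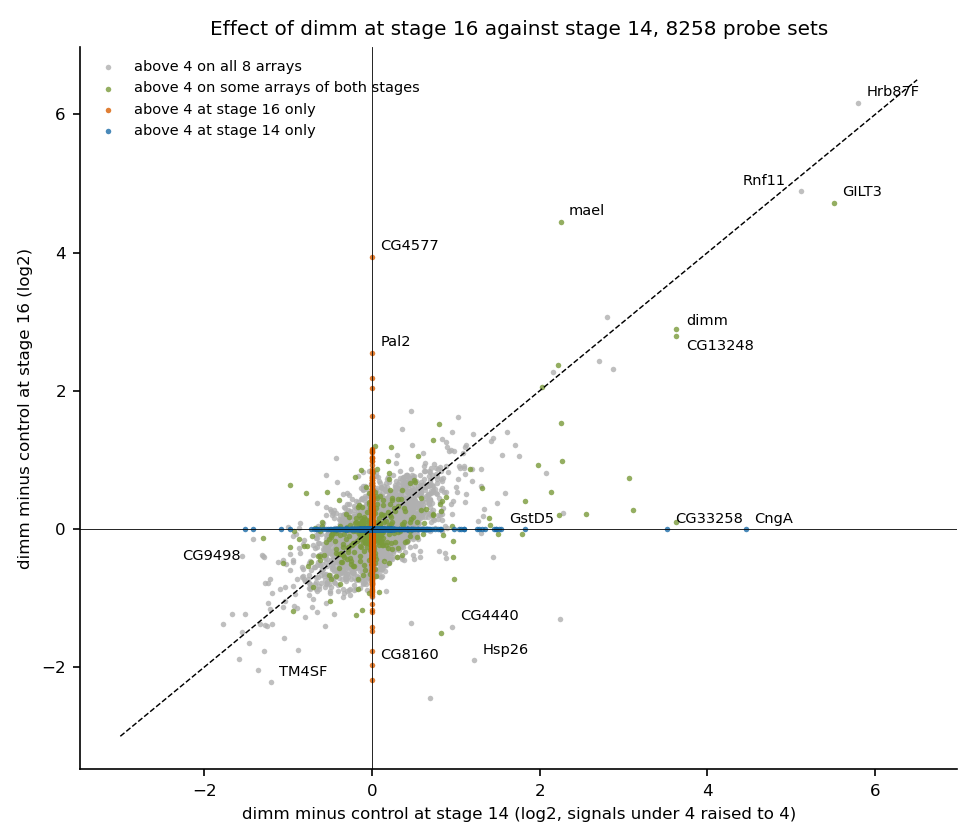
Each point is 1 of 8258 probe sets, with the effect of dimm at stage 14 on the x axis and at stage 16 on the y axis (log2, signals under 4 raised to 4), and the dashed line marks equal effects. Hrb87F, Rnf11 and GILT3 lie near the line, whereas CngA and GstD5 lie on the horizontal axis and CG4577 on the vertical axis because each was below 4 at one of the stages.

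CngA encodes a subunit of a cyclic nucleotide-gated ion channel, a channel that opens on binding cAMP or cGMP. At stage 16 it read 4 on all arrays of both genotypes. At stage 14 it had 8.502 and 8.42 in dimm embryos against 4 and 4 in control embryos. CngA was therefore above 4 only in stage 14 dimm embryos, with no overlap of the groups. Its mean there was at least 22.0-fold higher than in control embryos, an effect that passed the threshold (adjusted p = 4.41e-05 by limma). The stage difference was -4.46 ± 0.09 (adjusted p = 0.000276, limma). CngA entered the test only through the 2 stage 14 dimm arrays, and its other 6 readings, raised to 4, had no spread. Both of its p-values thus rest on the values that selected it. As deposited, before the readings were raised to 4, the stage 16 arrays held 3.499 and 3.57 for dimm and 3.46 and 3.45 for control, and the 2 stage 14 control arrays held 2.18 each. It passed the threshold in all 18 alternatives in which it was tested, with adjusted p up to 0.0143. It was not tested without either of the stage 14 dimm arrays, since then only 1 array was above 4, or where 4 arrays had to exceed 4. All 18 alternatives thus kept both arrays through which CngA entered the test, and their tally is no separate evidence for the stage difference.

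GstD5 followed the same form at a lower level. It encodes a delta class glutathione S-transferase, an enzyme family that conjugates glutathione to toxic compounds. Its signals were 4 on all stage 16 arrays, and at stage 14 they were 5.56 and 5.51 in dimm embryos against 4 and 4 in control embryos. GstD5 entered the test only through these 2 dimm arrays, and its other 6 readings, raised to 4, had no spread. Its p-values thus rest on the values that selected it. The mean was at least 2.90-fold higher in stage 14 dimm embryos (adjusted p = 0.00232, limma), and the stage difference was -1.53 ± 0.09 (adjusted p = 0.019, limma). This call was less stable: it passed in 6 of 17 alternatives, and its adjusted p was 0.0843 without stage 16 control replicate 1, 0.0898 and 0.0774 without either stage 16 dimm array, and 0.298 and 0.223 without either stage 14 control array.

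CG4577 showed the opposite timing. At stage 16 it had 9.20 and 9.39 in dimm embryos against 5.26 and 5.45 in control embryos, and all 4 arrays of stage 14 were under 4. It rose 15.4-fold at stage 16 (adjusted p = 0.000729, limma), and the stage difference was 3.94 ± 0.15 (adjusted p = 0.0029, limma). The stage 14 readings before they were raised to 4 were 3.98 and 3.22 in dimm embryos against 2.18 and 2.18 in control embryos, so the dimm arrays were above the control arrays there too, below the limit of 4. With those readings kept, the stage difference was 2.52 and its adjusted p was 0.615. The call also missed the threshold without either stage 14 control array (adjusted p = 0.085 and 0.0567) and without either stage 14 dimm array (adjusted p = 0.174 each).

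**Figure D2:**
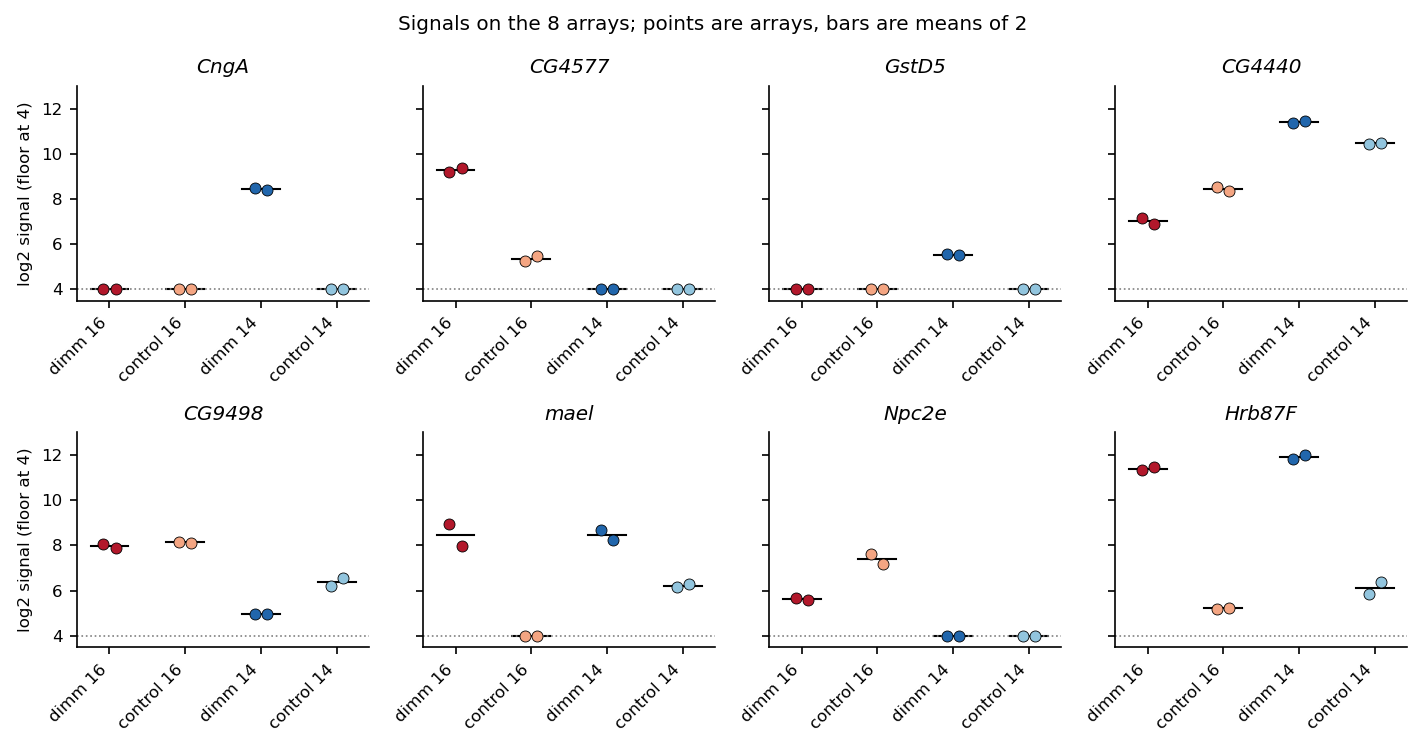
Log2 signals of 8 genes on the 8 arrays, with columns for stage 16 dimm, stage 16 control, stage 14 dimm and stage 14 control embryos, points for arrays, bars for means of 2 and a dotted line at 4. CngA and GstD5 leave the line only in stage 14 dimm embryos, CG4440 changes sides between the stages, and Hrb87F keeps its distance.

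One named gene had effects in opposite directions by the size rule used, 0.5 or more each way with dimm and control arrays apart at both stages. CG4440 had 7.15 and 6.88 in stage 16 dimm embryos against 8.53 and 8.33 in stage 16 control embryos. In stage 14 embryos it had 11.36 and 11.45 in dimm embryos against 10.42 and 10.50 in control embryos. The dimm arrays thus lay below the control arrays at stage 16 and above them at stage 14, and the gene was bright on all 8 arrays. It fell by 1.41 at stage 16 (adjusted p = 0.0357, limma), the effect of 0.95 at stage 14 had an adjusted p of 0.0688, and the stage difference of -2.36 ± 0.18 did not pass (adjusted p = 0.057). It passed in 3 of 21 alternatives. A single unnamed probe set, 1638428_at, showed the reverse order. It had 7.83 and 7.70 in stage 16 dimm embryos against 6.82 and 7.16 in stage 16 control embryos, and 9.17 and 9.39 in stage 14 dimm embryos against 9.97 and 9.68 in stage 14 control embryos. Its stage difference of 1.32 ± 0.24 did not pass (adjusted p = 0.622, limma).

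Counted by size, with a change of at least 1 and arrays apart at one stage and under 0.5 at the other, 28 probe sets changed only at stage 16 (17 raised and 11 lowered) and 36 only at stage 14 (23 raised and 13 lowered). Changes of at least 1 at both stages were found for 40 probe sets, 23 raised and 17 lowered. Much of the single-stage group again consisted of genes measured at a single stage: 10 of the 17 raised and 8 of the 11 lowered only at stage 16 were never above 4 at stage 14. Likewise 16 of the 23 raised only at stage 14 were never above 4 at stage 16, as were 3 of the 13 lowered.

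CG33258, raised only at stage 14, had 4 on all stage 16 arrays, and 7.08 and 7.95 in stage 14 dimm embryos against 4 and 4 in stage 14 control embryos. It too entered the test only through its 2 stage 14 dimm arrays, with its other 6 readings raised to 4. It rose at stage 14 (at least 11.4-fold, adjusted p = 0.0214, limma), while the stage difference of -3.51 ± 0.39 did not pass (adjusted p = 0.226). CG13023 also rose at stage 14, by 1.83 (adjusted p = 0.0333, limma), and was below 4 on every stage 16 array. Both had more spread between their stage 14 dimm arrays than CngA.

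Of genes that fell at stage 14, jhamt, whose enzyme makes juvenile hormone in the corpora allata, read 4 on all stage 16 arrays. Its stage 14 signals were 9.68 and 9.64 in dimm embryos against 10.36 and 10.35 in control embryos. It fell at stage 14 (adjusted p = 0.0257, limma), and its stage difference was 0.69 ± 0.09 (adjusted p = 0.279). CG9498 could be compared on all arrays. It had 8.08 and 7.88 in stage 16 dimm embryos against 8.15 and 8.11 in stage 16 control embryos, and 4.98 and 4.96 in stage 14 dimm embryos against 6.22 and 6.55 in stage 14 control embryos. CG9498 fell at stage 14 (adjusted p = 0.0265, limma) and its effect at stage 16 was -0.15, yet the stage difference of 1.27 ± 0.19 did not pass (adjusted p = 0.427). Rbp9, an RNA-binding protein of the ELAV family, had an effect of -0.38 at stage 16 and -1.55 at stage 14, and neither these nor the stage difference of 1.17 ± 0.37 passed.

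Among genes lowered only at stage 16, Npc2e, of a family of secreted sterol-binding proteins, had 5.68 and 5.59 in dimm embryos against 7.62 and 7.19 in control embryos, with 4 on all stage 14 arrays. It fell at stage 16 (adjusted p = 0.0357, limma). Npc2e is itself one of the 3 midgut markers on the array. Of the others, 1 was above 4 on no array, and the midgut factor GATAe had effects of 0.00 at stage 16 and 0.03 at stage 14. Among the 9 midgut and digestive genes tested, 3 had effects apart and lower at stage 16, against 10.4% of all genes, and the median stage difference was -0.18. The 3 were unlike in form. Besides Npc2e they were LManI, with effects of 0.16 at stage 16, where it was near 4, and 1.39 at stage 14, and Npc2b, with -0.21 and -0.03. MFS9, named for a transporter superfamily, fell at stage 16 by at least 1.41 (adjusted p = 0.0423, limma), a lower bound since 1 of its 2 dimm arrays was below 4. It was likewise below 4 at stage 14. The stage differences of Npc2e (-1.77 ± 0.21) and MFS9 (-1.41 ± 0.20) had adjusted p of 0.245 and 0.371. CG8160 (-1.97 ± 0.31), CG8157 (-2.19 ± 0.89) and Cbp53E (-1.47 ± 0.42), which encodes a calcium-binding protein, had larger or similar stage differences with no passing effect at stage 16.

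On the raised side at stage 16, Cyp304a1, a cytochrome P450 gene, had 9.54 and 9.56 in dimm embryos against 6.91 and 7.81 in control embryos, and 4 on all stage 14 arrays. The groups did not overlap, but its stage difference of 2.19 ± 0.40 did not pass (adjusted p = 0.622, limma). CG13813 had a stage difference of 2.04 ± 0.83 and was also below 4 at stage 14.

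Calls at one stage were in part shared with the other. Of the 16 probe sets raised at stage 16, 13 were called raised at stage 14 too, and their median effect was 2.37 at stage 16 and 2.21 at stage 14. Of the 29 raised at stage 14, 13 were called raised at stage 16 and 11 were below 4 on every stage 16 array, and their median effect was 0.80 at stage 16 and 1.61 at stage 14. Of 11 lowered at stage 16, 2 were called lowered at stage 14, and of 6 lowered at stage 14, 2 were called lowered at stage 16. A call at one stage alone does not show that the stages differ. Across the 6859 probe sets above 4 on all arrays, which are not independent and share the 8 arrays, the effect at stage 16 correlated with that at stage 14 at 0.654 (Pearson) or 0.512 (Spearman).

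Hrb87F, an hnRNP protein that binds nuclear RNA, had the largest effect at each stage among the 6859 probe sets above 4 on all 8 arrays. It had 11.33 and 11.46 in stage 16 dimm embryos against 5.203 and 5.25 in stage 16 control embryos. Stage 14 signals were 11.83 and 11.998 in dimm embryos against 5.86 and 6.38 in control embryos. It rose 72.0-fold at stage 16 (adjusted p = 0.000729, limma) and 55.5-fold at stage 14 (adjusted p = 0.000826, limma), and the stage difference was 0.38 with an interval of -0.28 to 1.03. The other hnRNP genes Hrb98DE and Hrb27C had effects of -0.16 and 0.00 at stage 16 and of 0.00 and -0.26 at stage 14.

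GILT3, of a family of lysosomal thiol reductases, had 8.78 and 8.66 in stage 16 dimm embryos against 4 and 4 in stage 16 control embryos. Stage 14 signals were 9.30 and 9.71 in dimm embryos against 4 and 4 in control embryos. It rose at least 26.4-fold at stage 16 (adjusted p = 0.000729, limma) and at least 45.4-fold at stage 14 (adjusted p = 0.000488), with effects that were apart between the stages although the difference of -0.78 ± 0.21 did not pass (adjusted p = 0.856, limma). Because the control arrays were at the limit of 4 at both stages, this difference compares only the dimm arrays.

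Rnf11, a RING finger gene, had 10.98 and 10.71 in stage 16 dimm embryos against 6.68 and 5.22 in stage 16 control embryos, and 10.71 and 10.81 in stage 14 dimm embryos against 5.53 and 5.76 in stage 14 control embryos. It rose at both stages, and its stage difference was -0.22 (interval -1.88 to 1.44), or 0.26 by a second probe set. CG13248, of the cationic amino acid transporter family, rose by 2.79 at stage 16 and by at least 3.62 at stage 14. Its control signal was 6.997 and 7.67 at stage 16 and 4 on both arrays at stage 14, so the stage difference of -0.83 (interval -1.77 to 0.12) sets a measured fold against a lower bound. The adhesion gene kek5, which encodes a leucine-rich repeat transmembrane protein, rose by 2.42 at stage 16 and 2.71 at stage 14.

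The gene mael, which acts in the piRNA pathway of the germline, stood out among the genes changed at both stages. It had 8.93 and 7.97 in stage 16 dimm embryos against 4 and 4 in stage 16 control embryos. At stage 14 it had 8.67 and 8.25 in dimm embryos against 6.14 and 6.27 in control embryos. The dimm signals of the stages overlapped, while the control signal was above 4 at stage 14 only. It rose at least 21.8-fold at stage 16 (adjusted p = 0.0325, limma), the 4.75-fold effect at stage 14 had an adjusted p of 0.0904, and the stage difference of 2.20 ± 0.47 did not pass (adjusted p = 0.701).

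Of genes with lower signals at both stages, TM4SF, a tetraspanin, had 5.71 and 6.45 in stage 16 dimm embryos against 8.21 and 8.40 in stage 16 control embryos, and 7.03 and 7.002 in stage 14 dimm embryos against 8.19 and 8.25 in stage 14 control embryos. The dimm arrays were below the control arrays at each stage, and the effect was -2.22 at stage 16 (adjusted p = 0.0523, limma) and -1.21 at stage 14 (adjusted p = 0.166). Its stage difference was -1.02 (interval -1.88 to -0.15, adjusted p = 1). For mre11, a nuclease of double-strand break repair, the effects were -1.37 and -1.19 at stage 16 and stage 14, with a stage difference of -0.18 (interval -1.10 to 0.74). CG13532 had effects of -1.37 at stage 16 and -1.77 at stage 14, and CG30428 -1.65 and -1.46.

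**Figure D3:**
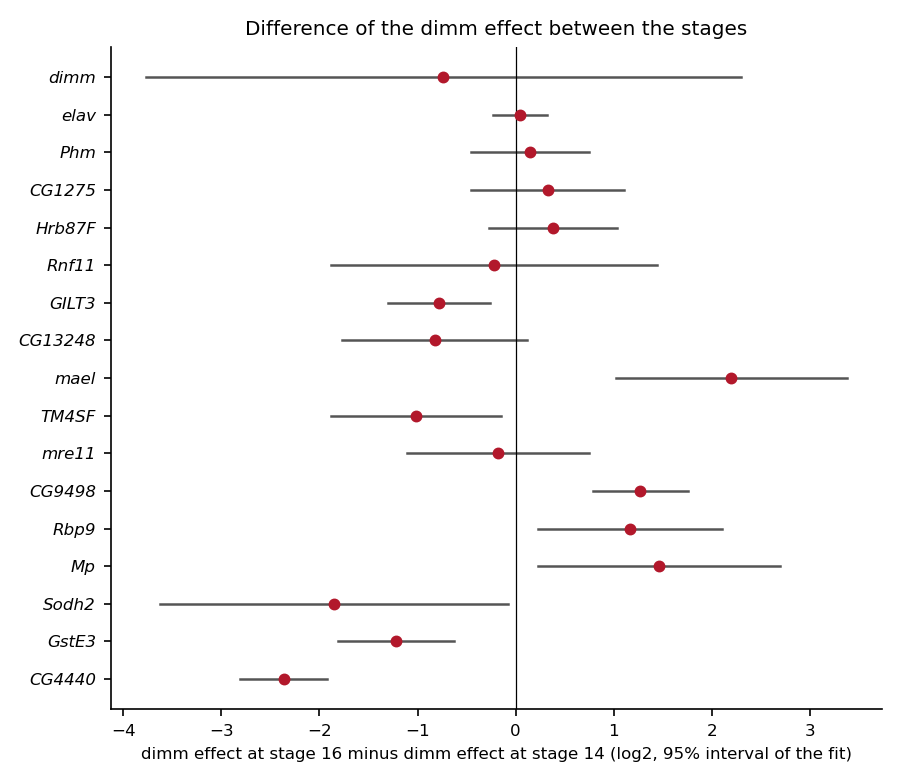
Stage difference of the effect of dimm (log2, stage 16 minus stage 14) for 17 genes, as points with 95% intervals of the limma fit, not adjusted for the number of probe sets. The interval of dimm runs from -3.77 to 2.30, that of elav from -0.23 to 0.33, and CG4440 lies farthest to the left at -2.36.

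Genes of the neuropeptide pathway were of interest because DIMMED is known to act on them. Of 18 genes for peptide processing and dense core vesicles, 16 were on the array and 13 were tested. None passed for the stage difference, where 0.0437% of the 6865 tested genes did, and 2 had an unadjusted p under 0.05, against 3.89% of all genes. Effects were apart for 4 of the 13, all higher at stage 16, against 3.74% of all genes apart in that direction and 10.4% in the other. The median stage difference was 0.24, against -0.06 for all genes, and it was 0.02 without the 2 stage 16 arrays of low 5' signal. The 4 genes were Pal2, Rph, amon and IA-2, and all 4 were below 4 on every stage 14 array, so an effect there could not be seen. For such genes effects are apart wherever the stage 16 dimm and control arrays do not overlap. Of all 575 probe sets above 4 at stage 16 alone, 70 were apart and higher.

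Pal2 is a lyase for the last step of peptide amidation. It had 6.60 and 7.78 in stage 16 dimm embryos against 4.66 and 4.62 in stage 16 control embryos, with 4 on all stage 14 arrays. The dimm arrays were above the control arrays, but the effect of 2.55 at stage 16 did not pass (adjusted p = 0.0901, limma) and neither did the stage difference of 2.55 ± 0.52 (adjusted p = 0.692). Rph, a Rab effector of regulated exocytosis, had 7.48 and 7.23 in stage 16 dimm embryos against 5.34 and 6.12 in stage 16 control embryos, with a stage difference of 1.63 ± 0.37. For amon, the prohormone convertase that cleaves neuropeptide precursors, stage 16 signals were 7.70 and 8.28 in dimm embryos against 6.22 and 7.54 in control embryos. Its stage difference of 1.11 ± 0.63 was smaller than the spread between the control arrays. IA-2, a dense core vesicle membrane protein, had a stage difference of 0.37.

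Phm, the monooxygenase of the first amidation step, was bright at both stages. It had 10.99 and 11.20 in stage 16 dimm embryos against 9.74 and 10.20 in stage 16 control embryos. Its stage 14 signals were 11.42 and 11.42 in dimm embryos against 10.40 and 10.48 in control embryos. The dimm arrays were above the control arrays at each stage, by 1.13 at stage 16 and 0.98 at stage 14, effects that did not pass over all probe sets (adjusted p = 0.094 and 0.124, limma). The stage difference was 0.15 (interval -0.45 to 0.75), and a second probe set gave -0.47. CG1275, of the cytochrome b561 family, had effects of 0.96 at stage 16 and 0.63 at stage 14 and a stage difference of 0.33 (interval -0.45 to 1.11). The gene 7B2, whose product assists the convertase, had effects of 1.07 at stage 16 and 0.29 at stage 14, with signals of 9.24 and 8.48 in dimm embryos against 8.26 and 7.32 in control embryos at stage 16. Its interval of -0.59 to 2.15 spans 0.

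Of the neuropeptide precursors themselves, 36 of 47 were on the array but 6 were tested, because the others did not exceed 4 on 2 arrays. None of the 6 passed for the stage difference, at stage 16 (0.35% of all genes did) or at stage 14 (0.452%). CCHa2 had effects of 0.89 at stage 16 and 0.70 at stage 14, and Nplp1 0.36 and 0.06. Mip, with 6.60 and 6.498 in stage 16 dimm embryos against 6.47 and 6.15 in stage 16 control embryos, was the single precursor with effects apart, at a stage difference of 0.24. It read 4 on all stage 14 arrays, so this is its stage 16 effect alone. The closest stage 16 dimm and control arrays differed by 0.03.

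Genes of vesicle release outside the peptide pathway had stage differences in both directions. Among 17 synaptic vesicle genes tested, none passed for the stage difference, effects were apart for 1 gene higher and 3 lower at stage 16 (3.74% and 10.4% of all genes), and the median was -0.07. Rim, a scaffold of the presynaptic active zone, had an effect of 1.203 at stage 16, which did not pass (adjusted p = 0.425, limma). Its stage 14 signals were 4 and 4.08 in dimm embryos against 4 and 4 in control embryos, so an effect there could not be seen. ChT, a choline transporter, had 7.27 and 7.52 in stage 16 dimm embryos against 8.03 and 8.25 in stage 16 control embryos and was below 4 at stage 14. EndoA, which acts in vesicle endocytosis, had effects of -0.12 at stage 16 and 0.34 at stage 14. The 14 pan-neuronal and channel genes had a median of 0.01, and the 24 genes of the general secretory pathway a median of -0.04 with 1 gene apart. All 24 were above 4 on all 8 arrays.

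Glutathione S-transferases held 1 of the 3 passing genes, and 21 of 30 on the array were tested. Effects were apart for 3 genes higher and 5 lower at stage 16, against 3.74% and 10.4% of all genes. An unadjusted p under 0.05 was found for 6 of the 21, against 3.89% of all genes, and the median stage difference was 0.00. The 5 lower ones were GstD5 and the epsilon class genes GstE3, GstE5, GstE6 and GstE7. GstE3 had 9.98 and 9.96 in stage 16 dimm embryos against 10.45 and 10.20 in stage 16 control embryos, and 11.49 and 11.46 in stage 14 dimm embryos against 10.39 and 10.82 in stage 14 control embryos. Its arrays thus lay lower with dimm at stage 16 and higher with dimm at stage 14, but the stage difference of -1.22 ± 0.23 did not pass (adjusted p = 0.655, limma). The differences of GstE5, GstE6 and GstE7 were -0.999, -0.50 and -0.65. At stage 14 GstE5 was at the limit, with 4 and 4.17 in dimm embryos against 4 and 4 in control embryos. By contrast GstE1 fell at both stages, by 1.15 at stage 16 (adjusted p = 0.0325, limma) and by 1.21 at stage 14 (adjusted p = 0.0185, limma), with a stage difference of 0.06 (interval -0.25 to 0.37). Members of a family this similar in sequence may share signal between probe sets, which was not tested.

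**Figure D4:**
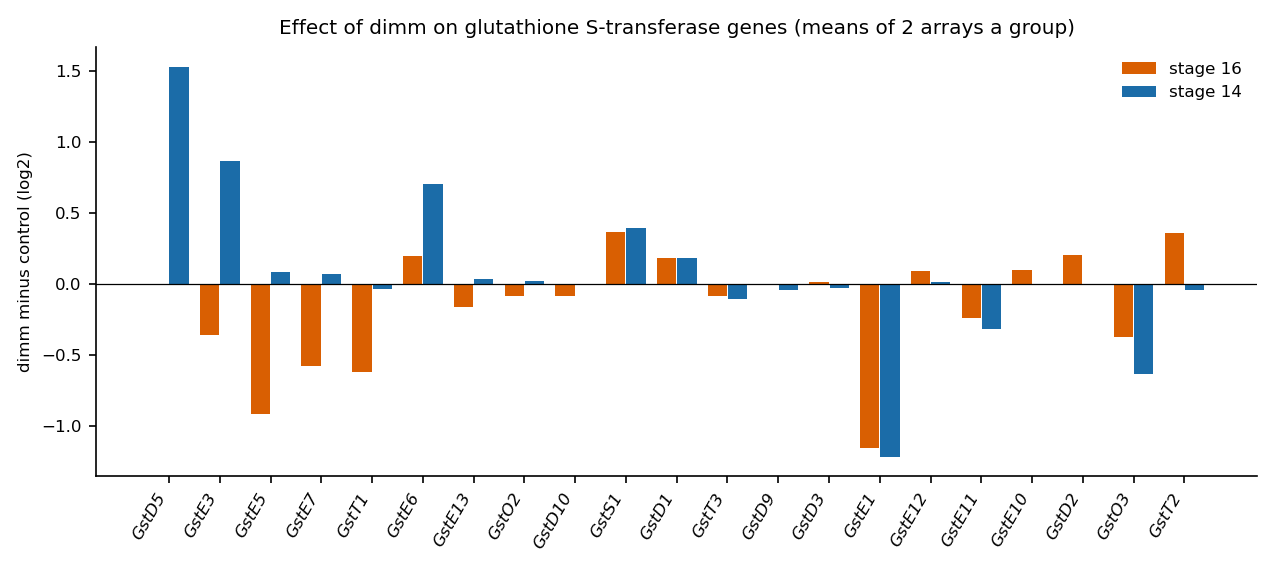
Effect of dimm (log2, means of 2 arrays a group) on 21 glutathione S-transferase genes at stage 16 (orange) and stage 14 (blue), ordered by the stage difference. GstD5 has a bar at stage 14 alone, GstE3 has bars on both sides of 0, and GstE1 falls by 1.15 at stage 16 and 1.21 at stage 14.

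Genes of dividing cells had mostly negative stage differences, none of which passed. Of 17 cell cycle and DNA replication genes 15 had negative differences, as had 4390 of all 6865 genes. Effects were apart and lower for 6 of the 17, against 10.4% of all genes, and apart and higher for none. The median was -0.23 against -0.06 for all genes, and -0.16 when the arrays were centred on their medians, a scale on which the probe sets apart and lower numbered 436 rather than 829. Mcm5, a subunit of the replicative helicase, had 5.89 and 5.80 in stage 16 dimm embryos against 5.92 and 6.0003 in stage 16 control embryos, and 8.81 and 8.51 in stage 14 dimm embryos against 8.15 and 8.25 in stage 14 control embryos. Its stage difference was -0.57 ± 0.17, and those of PCNA, the polymerase clamp, and aurB, a mitotic kinase, were -0.49 and -0.30. The value of aurB is its stage 14 effect of 0.30 with the sign turned, since it was below 4 on every stage 16 array. In all, 2 of the 17 genes were above 4 at stage 14 alone. The 15 neuroblast and temporal genes had 5 apart and lower, against 10.4% of all genes, none higher, and a median of -0.16, or -0.08 after centring. The hunchback gene hb had effects of -0.70 at stage 16 and -0.04 at stage 14, the neuroblast factor wor -0.38 and 0.04, and pdm2 -0.02 and 0.30.

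Of the 5 heat shock genes tested, 3 had effects apart and lower at stage 16, against 10.4% of all genes, with a median of -0.90. Hsp26, a small heat shock protein, had 5.39 and 5.29 in stage 16 dimm embryos against 9.28 and 5.19 in stage 16 control embryos. The control array at 9.28 is one of the 2 arrays with low 5' signal, and without these 2 arrays the median of the list was -0.16. Hsp27 had 9.85 and 9.51 in stage 16 dimm embryos against 11.27 and 9.88 in stage 16 control embryos, again with that control array the highest, and the co-chaperone DnaJ-1 had a stage difference of -0.39.

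In the list for ER stress and the transcription factor ATF4, 13 genes were tested and none passed for the stage difference. aay, a phosphoserine phosphatase of serine synthesis, fell at stage 16, where it had 9.97 and 10.13 in dimm embryos against 10.84 and 10.88 in control embryos (adjusted p = 0.0377, limma). At stage 14 its effect was -0.40 (adjusted p = 0.163), and the stage difference of -0.41 ± 0.11 did not pass (adjusted p = 0.908). Nmdmc, a mitochondrial folate enzyme, had effects of -0.87 at stage 16 and -0.19 at stage 14. crc, the fly gene of ATF4, had effects of -0.13 and -0.18 at stage 16 and stage 14.

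Of the 20 tested cuticle protein genes of the Cpr family, 11 were above 4 at stage 16 alone. None of the 20 passed, 2 had effects apart and higher (3.74% of all genes), and the median was 0.11. Without the 2 arrays of low 5' signal 15 of the genes were still tested, and the median of that smaller set was -0.12. Cpr49Ac had effects of 0.86 at stage 16 and 0.46 at stage 14. Of 27 Tweedle and Osiris genes none passed either. Several Tweedle genes had large stage differences with wide errors: TwdlN, with 8.77 and 4.87 in stage 14 dimm embryos against 4.56 and 4.51 in stage 14 control embryos, had -2.05 ± 2.85. Its 2 stage 14 dimm arrays differed by more than the effect. The stage difference was -0.10 without stage 14 dimm replicate 1 and 0.025 without stage 16 control replicate 1.

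Lists for other tissues held no gene that passed for the stage difference. The 11 glial genes had a median of -0.13, with median effects of -0.08 at stage 16 and 0.01 at stage 14, and the glial factor repo had effects of -0.90 at stage 16 and -0.66 at stage 14. The 13 muscle genes had a median of -0.03, the 18 haemocyte and Toll pathway genes -0.01, the 13 collagen and basement membrane genes -0.02, the 10 tracheal genes -0.12 and the 5 fat body genes 0.04. Of 8 germline, piRNA and maternal genes tested, 4 had positive and 4 negative stage differences, with a median of 0.05. Effects were apart for 3 higher and 1 lower at stage 16, against 3.74% and 10.4% of all genes. Above 4 at stage 14 alone were 5 of the 8, and these went both ways. Among them aub, a PIWI family gene, had 6.05 and 5.65 in stage 14 dimm embryos against 6.69 and 6.45 in stage 14 control embryos. For bam the stage 14 signals were 5.67 and 5.55 in dimm embryos against 5.53 and 5.29 in control embryos. Of 14 ribosomal protein genes tested, 3 had effects apart and lower at stage 16, against 10.4% of all genes. They were RpS15, RpL28 and RpS18, with stage differences of -0.10, -0.10 and -0.09 and standard errors of 0.09 to 0.10. The median of the 14 was -0.07, or 0.003 after median centring.

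**Figure D5:**
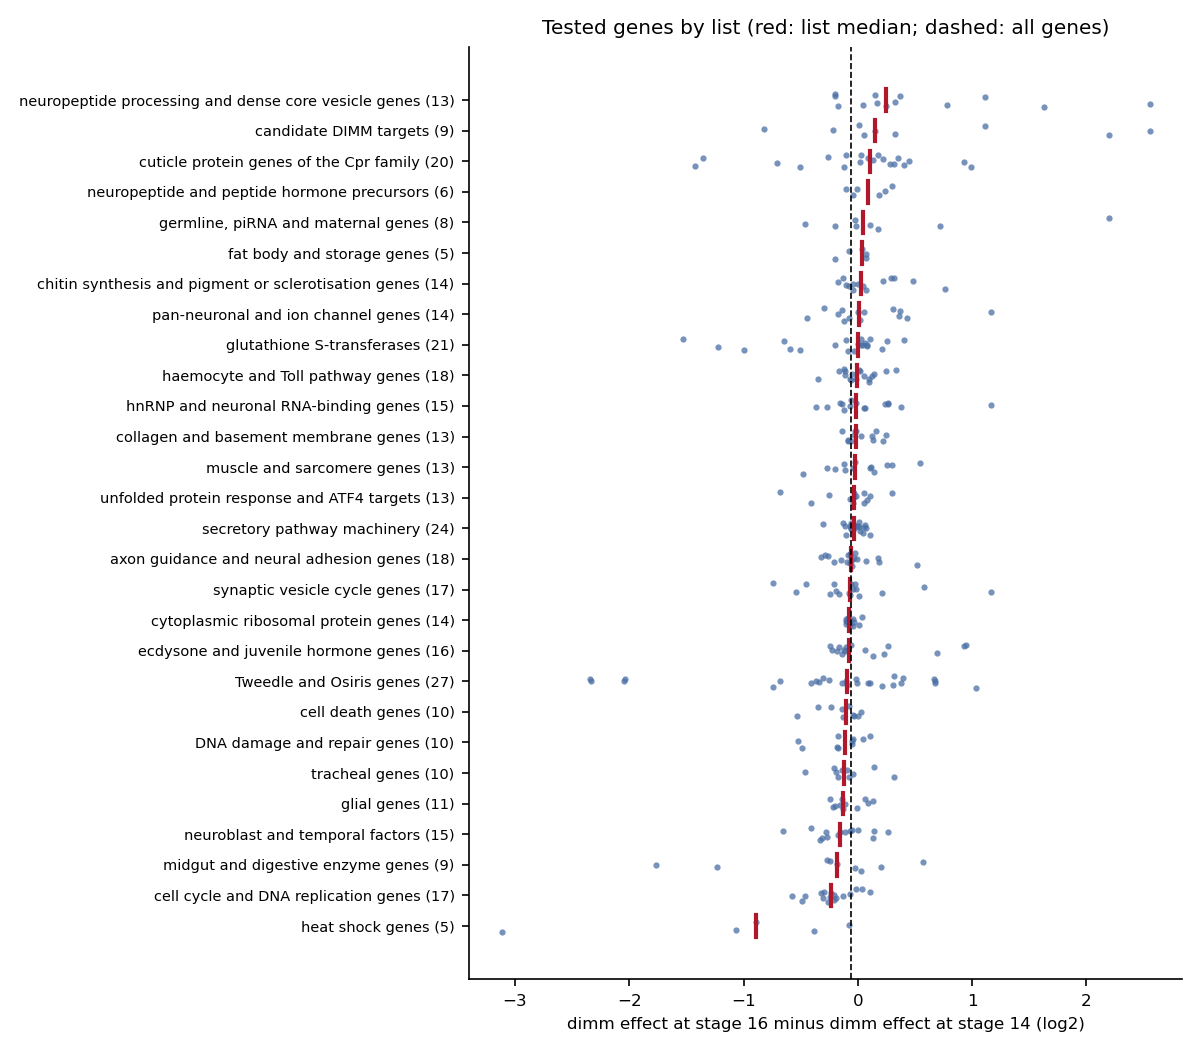
Stage difference of the effect of dimm (log2) for the tested genes of the lists with at least 5 of them, as blue points, with list medians as red bars and the median of all genes, -0.06, as a dashed line. Medians run from 0.24 for neuropeptide processing genes to -0.90 for heat shock genes, each read with the arrays of low 5' signal included.

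Across all probe sets, effects at the stages were apart for 1156 of 8258, or 14.0%: 327 higher and 829 lower at stage 16. This balance depended on the scale. The median stage difference of all probe sets was -0.06, and after median centring of the arrays the counts were 682 higher and 436 lower, while quantile normalisation over all arrays gave 693 higher and 479 lower. The share that was higher was 28.3% on the deposited scale, 61% after centring and 59.1% after quantile normalisation. Differences of 1 or more in either direction were rarer: 31 probe sets were at least 1 higher and 62 at least 1 lower at stage 16. Of these, 9 and 19 were above 4 on all 8 arrays. Other stage differences of this size among genes with effects apart and all arrays above 4 included 1.46 ± 0.49 for Mp, a collagen of basement membranes, and -1.85 ± 0.70 for Sodh2, a sorbitol dehydrogenase. CG9449 had 1.16 by a probe set that was above 4 on only 1 stage 16 array, so its stage 16 effect could not be read. The probe set that stands for the gene was above 4 on all 8 arrays. It had effects of -1.75 at stage 16 and -0.88 at stage 14, and its stage difference of -0.87 did not pass.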

How the data were processed

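The deposited table holds log2 signals that the authors made with GCRMA (version 2.22.0, run in R 2.12.1; limma is also listed, per the submitters' processing notes). GCRMA corrects background by probe sequence, quantile-normalises and summarises probe sets. Its lowest value was shared within a stage (2.186 at stage 16, 2.182 at stage 14), and no source used here says if both stages were normalised jointly. Of 18952 probe sets, 183 controls were left out, while the platform annotation gave 13647 a single gene, 402 more than 1 and 4720 no gene. RefSeq gene tables supplied names, and 103 gene identifiers were not found there. The labels give stage 14 as 22 to 26 h, and the series text gives a later lower age.

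Signals under 4 were raised to 4, and probe sets above 4 on at least 2 arrays were kept. The second highest signal was 4.001 and 4.002 just inside this limit, and 3.996 and 3.995 just outside. limma 3.58.1 in R 4.3.3 fitted 4 group means (4 residual and 1.30 prior degrees of freedom), checked on simulated data. The simulated arrays were independent, with the same spread in every group and no floor. That check thus does not cover readings raised to 4, unequal spread of the groups or arrays that deviate together. Precision is limited by having 2 arrays a group. Of several probe sets for a gene, the one with the highest mean stands for it. Named genes were dimm, elav, those past the threshold, the 10 largest differences each way with effects apart, the 5 largest of each pattern, up to 3 members of each of 29 gene lists, and 10 genes named whatever their result; other list members were named after their values were seen. The genes and lists were chosen with earlier results of these data known. Alternatives changed the floor, filter, scaling, weights and arrays used.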

Additional observations from a re-analysis of the deposited data

Results flagged for a closer look

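In 3 genes the test of the stage difference itself passed: CngA at -4.46, CG4577 at 3.94 and GstD5 at -1.53 (log2, effect of dimm at stage 16 minus stage 14). CngA and GstD5 entered the test only through the 2 stage 14 dimm arrays in which they were high. Their p-values thus rest on the values that selected them. In 10 further named genes each dimm array lay on one side of both control arrays at stage 16 and on the other side at stage 14. These were CG4440 at -2.36, GstE3 at -1.22, Hsp27 at -1.07, Mcm5 at -0.57, EndoA at -0.46, wor at -0.41, DnaJ-1 at -0.39, crq at -0.35, ImpL2 at -0.25 and RpS15 at -0.10. All 10 were named by rules that required effects apart, and the share of all probe sets with this form was not counted. All 10 differences were negative. Over all probe sets 829 were apart and lower and 327 higher, but 436 and 682 after median centring. The value of RpS15 lay near the median of all probe sets, -0.06. The difference was tested in each of the 10 and did not pass, with adjusted p of 0.057 for CG4440, 0.655 for GstE3, 0.785 for EndoA and 1 for the others (limma).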

How the results depend on the processing

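The count of 3 probe sets past the threshold for the stage difference was 1 with no floor, 8 with a floor of 5, 1 with signals above 4 required on 4 arrays, and 365 without the 2 stage 16 arrays of low 5' signal. It was 0 to 7 with single arrays left out (0 without stage 14 dimm replicate 1, 7 without stage 16 control replicate 2), where the lone array of a group is assumed to vary like the other groups. With the replicate block it was 4 (1 higher and 3 lower), of which 2 were among the 3. Under the block CG4440 passed (adjusted p = 0.0266) and GstD5 did not (adjusted p = 0.0623). Same-numbered arrays deviated together at 0.903 at stage 16 and 0.156 at stage 14, and the labels do not say that a number marks a shared batch, so the block is not read as a pairing. The stage 16 count of 27 was 173 with the replicate block, 796 without the low 5' arrays, 1 with array weights, 1 with a variance per stage, and 3 to 42 with single arrays left out. The stage 14 count of 35 was 76 with a floor of 5, 23 with signals above 6, 140 with the replicate block, 91 without the low 5' arrays, 751 with array weights, 776 with a variance per stage, and 1 to 23 with single arrays left out.

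Effects apart and higher at stage 16 numbered 682 after median centring, 693 after quantile normalisation, 1745 without the low 5' arrays and 512 to 1503 with single arrays left out. Those lower numbered 436, 479, 3690 and 1153 to 2434. With arrays left out, fewer single-array differences have to lie apart, so the rule is easier to meet. Those counts are therefore not comparable with the counts from all arrays. With limits of 0.6 and 0.3 in place of 1 and 0.5, 107 probe sets changed at stage 16 only, 106 at stage 14 only, 130 the same way at both and 5 in opposite directions. Without the low 5' arrays 63 changed at stage 16 only. With single arrays left out the ranges were 26 to 264, 34 to 62, 39 to 50 and 1 to 21 in the same order. The first range was 141 to 264 without a stage 16 array and 26 to 30 without a stage 14 array. The cause of this split was not tested.

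The sign of the stage difference turned for 9 genes, none of which had passed for it. CG13248 was 0.17 with a floor of 5. Without the low 5' arrays CG11825 was 0.21, dimm 0.64 and Rnf11 0.37. With single arrays left out the ranges were -1.15 to 0.10 for CG11825, -4.13 to 0.025 for TwdlN, -0.083 to 0.38 for Phm, -2.11 to 0.64 for dimm, -0.51 to 0.15 for mre11, -0.0084 to 0.11 for elav, -0.95 to 0.51 for Rnf11 and -0.75 to 0.37 for CG30428. The cause of these changes was not tested. CG4577 and GstD5 lost their calls in 6 of 21 and 11 of 17 alternatives. The medians of gene lists and the counts of effects apart were recomputed under alternatives chosen after seeing the data. Averaging the arrays of a group was not run, since it leaves no residual degrees of freedom. Readings near 4 limit any effect at a stage where a gene is dim, and 2 arrays a group limit the rest.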
